A study of Mus musculus with 24 samples.

Results

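The 37 genes described here encode the folding, quality control and stress signalling machinery of the endoplasmic reticulum, the compartment where secreted and membrane proteins are made. They were taken from the deposited table by gene symbol, and all 37 were found, out of 55367 symbols. They were read in 4 groups by role: 15 chaperones and folding enzymes, 10 genes of degradation and translocation, 5 sensors and transcription factors, and 7 targets of the factor ATF4. The kidneys came from 24 male mice with X-linked Alport syndrome (XLAS), on the B6 background and 15 weeks old. In this disease a defect of Col4a5, a type IV collagen gene, weakens the filter membrane of the glomerulus, and every mouse had it, the controls included. Against that shared background the groups differed in Nbl1, which encodes a secreted antagonist of bone morphogenetic proteins: 13 mice were HET (heterozygous) and 11 were WT (wild type). Batch 1, as the labels name it, held 6 HET and 6 WT mice, and batch 2 held 7 HET and 5 WT mice. The series thus asked what a lower dose of Nbl1 does in an Alport kidney, and mice without the disease are not compared here.

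When unfolded proteins build up in the endoplasmic reticulum, the membrane sensors IRE1 (Ern1), PERK (Eif2ak3) and ATF6 start the unfolded protein response. IRE1 splices the mRNA of Xbp1, ATF6 is cut to release a transcription factor, and these factors induce chaperones and degradation genes. PERK slows translation and favours the translation of ATF4, whose targets serve amino acid supply, redox balance and cell death. In Alport kidneys, podocytes and tubule cells face altered collagen chains and protein leak, and both settings have been linked to stress of this compartment.

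Each library was bulk RNA from kidney, and the depth was 29551337 to 33019871 counts in batch 1 and 36380374 to 50746652 in batch 2. The kidney markers Nphs1, Slc34a1, Lrp2, Umod, Slc12a1, Slc12a3 and Aqp2 had counts in every library. The Nbl1 level went with the labels in batch 2, at 4.23 to 7.82 CPM (read counts scaled to a common library size) in HET and 7.01 to 15.2 in WT, with HET 8 above the lowest WT mouse. In batch 1 it did not for 3 libraries. The library labelled HET 6 had 9.22 CPM of Nbl1, the highest of that batch, and no counts of Htr6, a neighbouring gene with reads in every other HET library. The libraries labelled WT 1 and WT 2 had 5.4 and 3.61 CPM of Nbl1, the lowest of their group, with 26 and 14 counts of Htr6 against at most 2 in the other WT libraries. These 3 are called the doubted libraries, and the genotype differences of batch 1 that the text turns on are given with and without them. The title and the library name of HET 8 give different animal numbers, and its values were taken by the library name. The labels do not say more of how the mice were bred. The p-values measure the spread between the mice of each comparison, those of a single batch or all 24.

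Promoter sequences around the best known elements of the response are given here, so that the members can be compared by a feature other than expression. RefSeq promoters (build GRCm38.p6, 250 bases before to 50 after each start) were held for 33 of the 37 members. Hyou1, Atf6, Manf and Derl1 were not matched. The endoplasmic reticulum stress element ERSE, CCAAT and CCACG with 9 bases of any kind between them, is bound by NF-Y together with ATF6 or XBP1. Its letters were found on either strand in 9 member genes: the chaperones Hspa5, Calr, Hsp90b1, Canx, Pdia6, Dnajc3 and Creld2 and the degradation genes Derl3 and Syvn1. Of all 32851 promoters of this length, 0.119% held it. ERSE-II, ATTGG and CCACG with 1 base between them, was found in Herpud1 and Dnajb11, against 0.0365% of all promoters. The element CARE, TGATGNAA, which ATF4 binds with C/EBP factors, was found in Chac1, Trib3, Asns and Herpud1, against 3.97% of all promoters. The element UPRE, TGACGTGG, was in no member promoter, and 0.676% of all promoters held it. No match overlapped that of another motif. A match describes the letters in this window and shows no binding.

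The 4 promoters below were chosen because they carry 1 ERSE (Hspa5), ERSE in 2 copies on opposite strands (Hsp90b1), ERSE-II (Herpud1) and CARE (Chac1). Each runs 5′ to 3′ over the 250 bases before the start, with the matched element in capitals. The Hspa5 match lies at -65 to -47 from the start, those of Hsp90b1 at -212 to -194 and -107 to -89, that of Herpud1 at -52 to -42 and that of Chac1 at -193 to -186. Herpud1 also holds CARE on the minus strand at -112 to -105, left in lower case. The stretches are chr2:34771840-34772089 (plus strand), chr10:86705445-86705694 (minus strand), chr8:94386179-94386428 (plus strand) and chr2:119350992-119351241 (plus strand).
Hspa5: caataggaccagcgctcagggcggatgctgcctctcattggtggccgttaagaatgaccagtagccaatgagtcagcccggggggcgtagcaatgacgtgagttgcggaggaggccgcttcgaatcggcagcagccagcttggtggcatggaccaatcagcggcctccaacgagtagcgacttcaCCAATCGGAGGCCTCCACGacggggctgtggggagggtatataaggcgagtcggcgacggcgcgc
Hsp90b1: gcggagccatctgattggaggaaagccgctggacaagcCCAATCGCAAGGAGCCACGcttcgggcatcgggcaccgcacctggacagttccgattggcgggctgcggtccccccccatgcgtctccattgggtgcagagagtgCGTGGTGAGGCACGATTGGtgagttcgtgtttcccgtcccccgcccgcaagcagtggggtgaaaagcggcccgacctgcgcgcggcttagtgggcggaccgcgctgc
Herpud1: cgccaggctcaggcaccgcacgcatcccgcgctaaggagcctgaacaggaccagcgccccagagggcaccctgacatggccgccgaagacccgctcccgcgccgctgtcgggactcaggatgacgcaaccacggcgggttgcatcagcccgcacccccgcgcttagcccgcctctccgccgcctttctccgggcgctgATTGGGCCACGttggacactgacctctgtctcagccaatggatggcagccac
Chac1: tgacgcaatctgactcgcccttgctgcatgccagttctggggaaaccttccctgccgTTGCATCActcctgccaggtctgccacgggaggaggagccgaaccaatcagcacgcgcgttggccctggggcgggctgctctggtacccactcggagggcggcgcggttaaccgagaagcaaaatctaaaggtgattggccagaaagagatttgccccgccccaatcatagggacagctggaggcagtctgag

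The other ERSE matches and the CARE match of Asns are given with up to 15 bases on each side, to let the fixed ends and the free middle bases of the element be compared between genes. The fixed ends read CCAAT and CCACG on the plus strand, and as CGTGG and ATTGG where the match lies on the minus strand, as in Calr, Derl3 and Creld2. The Asns match, TGATGAAA, is the CARE of an amino acid synthesis gene. The stretches are chr8:84847060-84847108 (minus strand), chr11:50325785-50325833 (minus strand), chr12:17266476-17266524, chr14:118937812-118937860, chr15:88819505-88819553, chr10:75893227-75893275 and chr19:6046517-6046565 (all plus strand) and chr6:7693210-7693247 (minus strand).
Calr: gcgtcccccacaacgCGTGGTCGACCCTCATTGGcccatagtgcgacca
Canx: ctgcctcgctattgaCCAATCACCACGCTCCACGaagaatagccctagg
Pdia6: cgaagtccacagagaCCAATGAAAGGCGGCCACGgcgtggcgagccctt
Dnajc3: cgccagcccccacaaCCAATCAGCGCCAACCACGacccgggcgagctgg
Creld2: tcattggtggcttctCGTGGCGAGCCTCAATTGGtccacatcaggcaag
Derl3: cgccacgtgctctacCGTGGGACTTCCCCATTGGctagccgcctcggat
Syvn1: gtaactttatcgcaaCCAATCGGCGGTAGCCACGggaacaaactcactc
Asns: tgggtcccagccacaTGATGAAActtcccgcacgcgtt

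In batch 2 the chaperones had higher levels in HET than in WT kidneys, and the ATF4 targets showed no common direction, although no member passed the test across all genes. All 15 chaperones had a positive log2 fold change, with a median of 0.31 and a range of 0.089 to 0.69. The 10 degradation genes were all positive too on counts (6 of 10 on TPM), with a median of 0.15. The sensors were positive in 4 of 5, with a median of 0.055, and the ATF4 targets in 4 of 7, with a median of 0.040. Over all 17955 genes tested, 50.1% were positive and the median was 0.00. In batch 1 the chaperones were instead negative in 15 of 15 on counts (8 of 15 on TPM), with a median of -0.061, while 50.6% of all 18494 genes were negative. The degradation genes were negative in 9 of 10 on counts (8 of 10 without the doubted libraries). The sensors were negative in 4 of 5 on counts, with and without those libraries. Of these genes, Selenos, Selenok, Sel1l, Xbp1 and Atf6 turned positive on TPM. The ATF4 targets were positive in 5 of 7 on counts, with a median of 0.081.

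No member passed the threshold for genotype, an adjusted p of 0.05 in edgeR's quasi-likelihood test. In batch 1 the share called over all genes was 0.00%, and 0 of 37 members had an unadjusted p under 0.05, against 2.82% of all genes; DESeq2 called 0 and put 1 member under 0.05. Without the doubted libraries Sel1l and Edem1 were negative with an unadjusted p of 0.0191 and 0.0320, and 0 members were called. In batch 2 the share called was 0.00557%, a single gene that is no member, Htr6. There 19 of 37 members had an unadjusted p under 0.05, all positive, against 4.08% of all genes that were positive and under it. Of the 19, 14 were chaperones, 4 were degradation genes and 1 was an ATF4 target. The smallest adjusted p among the members was 0.249, for Selenos. DESeq2 on the same counts called 3 members in batch 2, Selenos, Dnajb11 and Hyou1, among 27 genes in all. In bulk kidney, more cells of a type and more RNA per cell cannot be told apart.

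The scale of the values bears on these signs. On log2(TPM + 1), where TPM is the deposited level per transcript length, the median of all genes in batch 2 was -0.11. On counts it was 0.00, and single genes did not all move by the same amount between the scales. The chaperones remained positive in 15 of 15, with a median of 0.14, which is 0.26 above that of all genes, and 0 were called. The members were positive in 25 of 37 on that scale instead of 33, with 6 of 10 degradation genes, 1 of 5 sensors and 3 of 7 ATF4 targets positive. The share of all genes that was positive on TPM is not given here for any genotype comparison. The chaperones split in batch 1, with 7 of 15 positive on the TPM scale and 0 of 15 on counts, so their negative sign is not seen on both scales. These batch 1 signs are read against 0, without the median of all genes on TPM. They do not show whether the chaperones stood below other genes there. Leaving out the doubted libraries left 1 of 15 chaperones positive in batch 1, with a median of -0.081, and 6 of 7 ATF4 targets positive, with a median of 0.049.

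**Figure D1:**
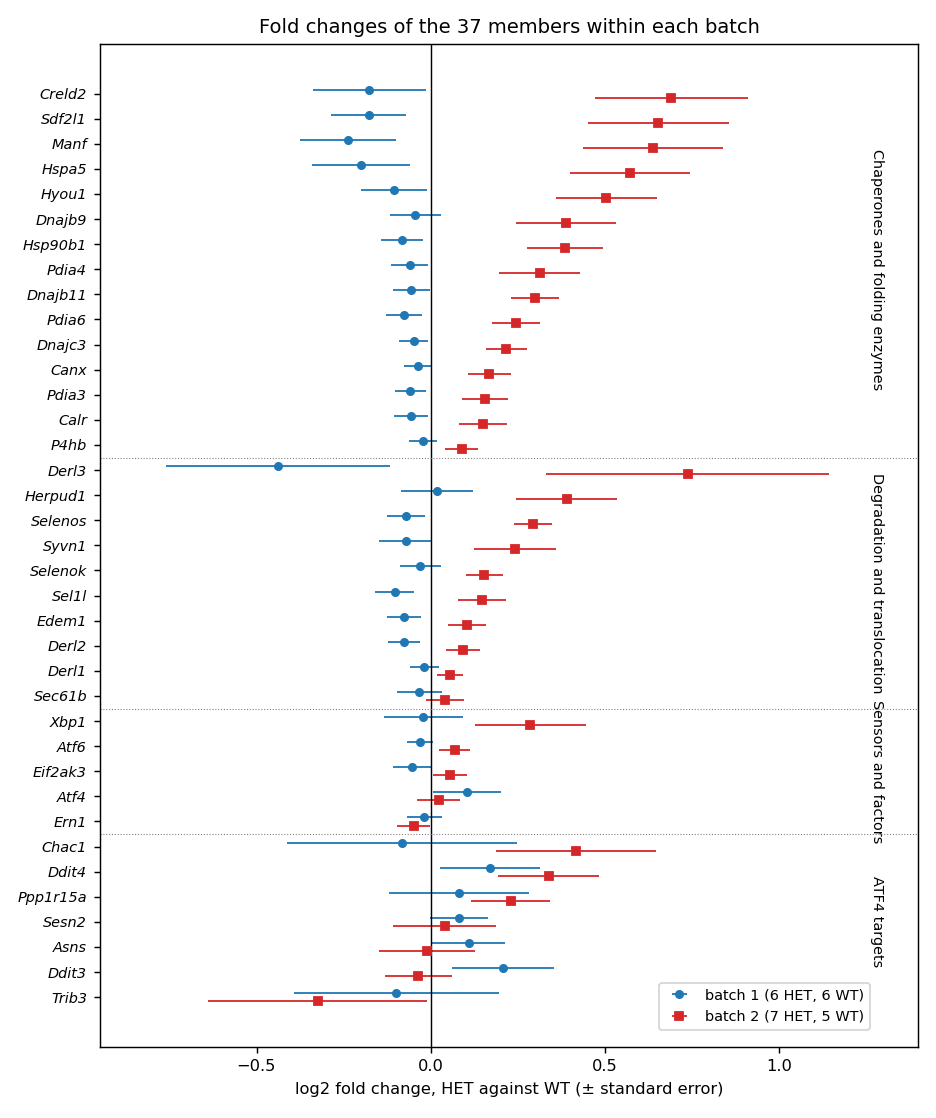
Log2 fold change of HET against WT for each of the 37 members in batch 1 (circles, 6 HET and 6 WT) and batch 2 (squares, 7 HET and 5 WT), with bars for 1 standard error, in 4 groups by role. On this count scale the squares of the 15 chaperones and 10 degradation genes lie to the right of 0 (6 of 10 degradation genes on TPM), while the circles of the chaperones lie to the left of it (7 of 15 to the right on TPM) and the ATF4 targets fall on both sides.

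Among the chaperones, Hspa5 (chr2:34771970-34777547 on GRCm38, plus strand) encodes BiP, the main Hsp70 of the compartment and the usual reporter of the response. In batch 2 the WT libraries had 413, 439, 454, 505 and 519 CPM, and the HET libraries had a lowest, median and highest value of 467, 643 and 928. In batch 1 these 3 values were 324, 379 and 565 in WT and 310.5, 360.2 and 396 in HET. In batch 2, 6 of 7 HET mice stood above every WT mouse and HET 10 lay within the WT range, while in batch 1 WT 5 was the highest and the genotypes overlapped. The log2 fold change of Hspa5 was 0.57 in batch 2 (standard error 0.17, 1.49-fold, edgeR adjusted p 0.565) and -0.20 in batch 1 (standard error 0.14; -0.29 without the doubted libraries).

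Dnajb11 (chr16:22857845-22879634, plus strand), an Hsp40 partner that brings unfolded chains to BiP, was the chaperone of smallest p in batch 2. Its WT libraries there had 78.1, 79.5, 82.5, 82.5 and 88 CPM, and its HET libraries had 88.1, 99 and 118 at the lowest, median and highest. Every HET library of batch 2 lay above every WT library, although HET 8 and WT 11 nearly met. In batch 1 the values were 62.8, 71.1 and 76.6 in WT and 62.2, 67.8 and 72.7 in HET, with overlap throughout. The log2 fold change was 0.30 in batch 2 (standard error 0.069, edgeR unadjusted p 0.000455, adjusted p 0.483) and -0.056 in batch 1 (-0.049 without the doubted libraries). With Selenos it was 1 of 2 members whose genotypes did not overlap in batch 2, against 0.362% of all genes that were higher in every HET library.

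Dnajc3 (chr14:118937976-118981697, plus strand) encodes the BiP cochaperone P58IPK. Its WT libraries of batch 2 had 178, 182, 186, 189 and 207 CPM, and HET had 194, 219 and 248 at the lowest, median and highest. Batch 1 values were 166, 184 and 193 in WT and 164, 178 and 184 in HET. HET 7 and HET 8 lay below WT 11, so the genotypes overlapped in batch 2 as well as in batch 1. Its log2 fold change was 0.22 in batch 2 (standard error 0.059, edgeR adjusted p 0.562) and -0.049 in batch 1 (-0.065 without the doubted libraries).

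Manf (chr9:106838312-106891979, minus strand), a secreted factor that is held by BiP and released under stress, was the chaperone of smallest p in batch 1. There WT had 26.3, 30.8 and 46.9 CPM at the lowest, median and highest and HET had 25.3, 27.9 and 33.3. In batch 2 the WT libraries had 32.1, 33.7, 37.9, 41.9 and 42.5, and HET had 36.1, 52 and 85.3. HET 9, HET 12 and HET 13 had the high values in batch 2, and HET 10 lay within the WT range. The log2 fold change of Manf was -0.24 in batch 1 (standard error 0.14, edgeR unadjusted p 0.109; -0.28 without the doubted libraries) and 0.64 in batch 2 (standard error 0.20, adjusted p 0.585).

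Calr (chr8:84841850-84846934, minus strand) encodes calreticulin, a lectin chaperone for glycoproteins. It was the most abundant member per transcript length, at a mean of 393 TPM over the 24 libraries. Its WT libraries of batch 2 had 618, 618, 656, 696 and 706 CPM, and HET had 644, 720.5 and 853 at the lowest, median and highest. In batch 1 WT had 529, 549 and 635 and HET had 497, 546 and 574. The genotypes overlapped in both batches. Its log2 fold change was 0.15 in batch 2 (standard error 0.068, edgeR adjusted p 0.602) and -0.055 in batch 1 (-0.079 without the doubted libraries).

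Of the chaperones in batch 2, Creld2, Sdf2l1, Manf, Hspa5 and Hyou1 had the largest fold changes, in that order. Creld2, a disulfide isomerase-like protein, was 1.61-fold higher in the fit, with 15.9 to 21.4 CPM in WT and 17.6 to 43.1 in HET. Sdf2l1, which works in the BiP and Dnajb11 complex, was 1.57-fold higher, with 5.61 to 7.3 CPM in WT and 6.78 to 17.3 in HET. For both, HET 12 and HET 13 were the highest libraries and HET 10 the lowest HET library. Hyou1, the exchange factor of BiP known as Grp170, was 1.42-fold higher, with 117 to 134 CPM in WT and 129 to 246 in HET, and 6 of 7 HET mice stood above every WT mouse.

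The remaining chaperones had smaller differences in batch 2. Dnajb9, a cochaperone that is an IRE1 target, had a log2 fold change of 0.39, and Hsp90b1, the Hsp90 of the compartment, had 0.39. The disulfide isomerases were graded, with 0.31 for Pdia4, 0.25 for Pdia6, 0.16 for Pdia3 and 0.089 for P4hb. P4hb was the chaperone that did not reach an unadjusted p of 0.05. Canx, the membrane-bound lectin partner of calreticulin, had 0.17. In batch 1 the log2 fold changes of these 7 genes lay between -0.082 for Hsp90b1 and -0.023 for P4hb. Without the doubted libraries they lay between -0.10 for Hsp90b1 and 0.0063 for Dnajb9, the chaperone that turned positive.

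**Figure D2:**
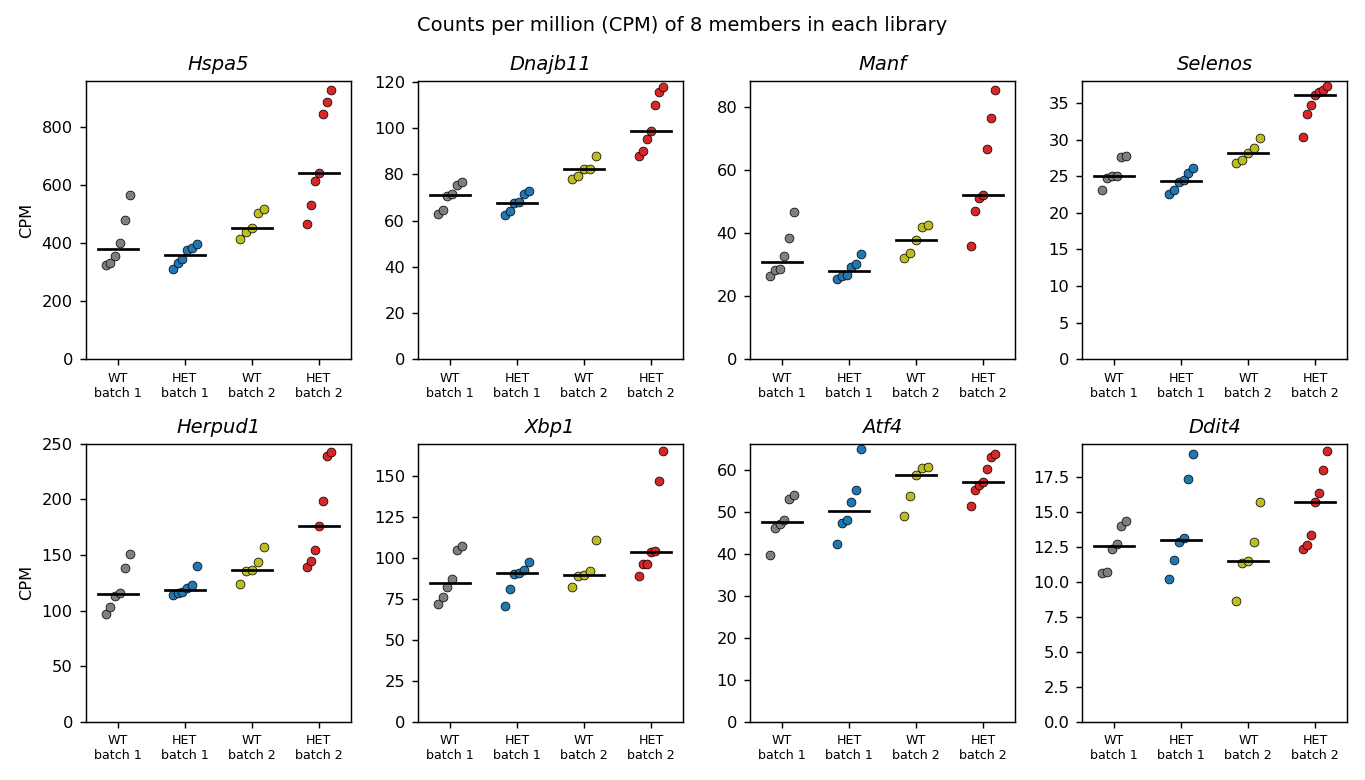
CPM (vertical axes from 0) of 8 members in each library, by genotype and batch, with a line at each group's median. In batch 2 the HET points of Dnajb11 and Selenos lie above all WT points, those of Hspa5, Manf and Herpud1 spread upward from the WT range, and those of Atf4 overlap WT.

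Of the degradation and translocation genes, Selenos (chr7:66079649-66089405, plus strand) had the smallest p of any member. It encodes a selenoprotein of the complex that pulls misfolded proteins out of the membrane. Its WT libraries of batch 2 had 26.9, 27.2, 28.2, 28.9 and 30.2 CPM, and HET had 30.4, 36.1 and 37.3 at the lowest, median and highest. All HET libraries lay above all WT libraries, with HET 10 next to WT 10. WT libraries of batch 1 had 23.1, 25 and 27.8 and HET 22.6, 24.4 and 26.2, with overlap. In the fit the log2 fold change was 0.29 in batch 2 (standard error 0.055, edgeR unadjusted p 5.54e-05, adjusted p 0.249) and -0.070 in batch 1 (-0.0077 without the doubted libraries). Selenos was called in batch 2 by DESeq2 (adjusted p 0.00238). The edgeR fit on all 24 mice with a term per genotype and batch also called it (adjusted p 0.0202). Of 12 edgeR runs that each left out 1 mouse of batch 2, 1 called Selenos, that without HET 10 (adjusted p 0.0248). Over those runs its adjusted p reached 0.851.

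Selenok (chr14:29968308-29975662, plus strand), a selenoprotein that partners with Selenos and the derlins, had 37.1, 39.2, 41.6, 43.7 and 44.1 CPM in the WT libraries of batch 2. HET had 42.3, 45.6 and 51 at the lowest, median and highest. WT kidneys in batch 1 had 40.4, 41.3 and 50.9 and HET 37.9, 42.8 and 45.1. In batch 2, 6 of 7 HET mice stood above every WT mouse, with HET 8 within the WT range. HET differed from WT by a log2 fold change of 0.15 in batch 2 (standard error 0.053, edgeR adjusted p 0.585) and -0.030 in batch 1, where it was 0.050 without the doubted libraries.

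Sel1l (chr12:91806043-91849157, minus strand) encodes the adaptor of the ubiquitin ligase HRD1, itself encoded by Syvn1. In batch 1 it was the degradation gene of smallest p, with 129, 137 and 166 CPM in WT and 128, 133 and 142 in HET at the lowest, median and highest. In batch 2 the WT libraries had 142, 147, 149, 152 and 155 and HET had 142, 161 and 196. The genotypes overlapped in both batches, with HET 8 and HET 10 no higher than the upper WT mice in batch 2. The log2 fold change was -0.10 in batch 1 (edgeR unadjusted p 0.0804; -0.16 without the doubted libraries) and 0.15 in batch 2 (standard error 0.069, adjusted p 0.602).

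Herpud1 (chr8:94386438-94395377, plus strand), a membrane protein that recruits the degradation machinery, was the most abundant gene of its group per transcript length, at a mean of 93.2 TPM. Its promoter above carries both ERSE-II and CARE. Its WT libraries of batch 2 had 124, 136, 137, 144 and 157 CPM, and HET had 139, 177 and 243. Batch 1 WT kidneys had 96.9, 115 and 151 and HET 114, 119 and 139.9. HET 9 and HET 12 were the high libraries of batch 2, HET 7, HET 8 and HET 10 lay within the WT range, and WT 5 was the highest of batch 1. Its log2 fold change was 0.39 in batch 2 (standard error 0.15, edgeR adjusted p 0.588) and 0.017 in batch 1 (0.021 without the doubted libraries).

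The other 6 genes of this group had positive log2 fold changes in batch 2 without an unadjusted p under 0.05. They were 0.24 for the ligase gene Syvn1, 0.10 for Edem1, a mannosidase-like protein that marks glycoproteins for disposal, and 0.041 for Sec61b, a subunit of the translocon. The derlins, channel proteins of the retrotranslocation step, had 0.055 for Derl1, 0.093 for Derl2 and 0.74 for Derl3. The Derl3 value rests on 7 to 68 counts per library, with 1.58 CPM in HET 13 and at most 0.816 in any other library, and its standard error was 0.41.

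Among the sensors and factors, Xbp1 (chr11:5520659-5525893, plus strand) encodes the factor made active by IRE1 splicing, which gene-level counts do not show. Its WT libraries of batch 2 had 82.1, 88.8, 89.2, 92 and 111 CPM, and HET had 89.1, 103 and 165. In batch 1 WT had 71.9, 84.8 and 107 and HET 70.5, 90.5 and 97.5. HET 12 and HET 13 stood above all other libraries, and the other 5 HET mice of batch 2 lay within the WT range. Its log2 fold change was 0.29 in batch 2 (standard error 0.16, edgeR adjusted p 0.645) and -0.021 in batch 1 (-0.070 without the doubted libraries).

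Atf6 (chr1:170704674-170867771, minus strand) encodes the sensor that is itself a transcription factor once cut, a step that mRNA levels do not report. It had 73.2, 76.6, 78.6, 79.4 and 79.8 CPM in the WT libraries of batch 2 and 77.2, 83.9 and 89.4 at the lowest, median and highest in HET. WT libraries of batch 1 had 71.9, 72.6 and 75.8 and HET 66.7, 71.9 and 75.8. The genotypes overlapped in both batches. In the fit the log2 fold change was 0.068 in batch 2 (standard error 0.043, edgeR adjusted p 0.670) and -0.031 in batch 1 (-0.040 without the doubted libraries).

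Atf4 (chr15:80255184-80257541, plus strand), whose protein is set mainly by translation, had 49.2, 53.8, 58.9, 60.5 and 60.8 CPM in the WT libraries of batch 2. HET had 51.4, 57.2 and 63.9 at the lowest, median and highest. WT kidneys in batch 1 had 39.7, 47.7 and 54.1 and HET 42.3, 50.3 and 65, with HET 5 the highest library of all. HET and WT overlapped in both batches, and the log2 fold change was 0.023 in batch 2 (standard error 0.061, edgeR adjusted p 0.931) and 0.10 in batch 1 (standard error 0.10; 0.094 without the doubted libraries). The kinase genes Eif2ak3 and Ern1 had 0.055 and -0.049 in batch 2, each about its own standard error of 0.049 and 0.047.

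Among the ATF4 targets, Ddit4 (chr10:59949669-59951834, minus strand), an inhibitor of mTORC1 also induced by glucocorticoids and low oxygen, had the smallest p in batch 2. Its WT libraries there had 8.62, 11.4, 11.5, 12.9 and 15.7 CPM, and HET had 12.4, 15.7 and 19.4. Batch 1 WT kidneys had 10.6, 12.5 and 14.3 and HET 10.2, 13 and 19.1. All 7 HET mice of batch 2 stood above the WT median and 3 above every WT mouse, and in batch 1 the genotypes overlapped with HET 5 the highest. Ddit4 had the same sign in both batches, with a log2 fold change of 0.34 in batch 2 (standard error 0.14, edgeR unadjusted p 0.0352, adjusted p 0.596) and 0.17 in batch 1 (standard error 0.14; 0.20 without the doubted libraries).

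Ppp1r15a (chr7:45522916-45526268, minus strand) encodes GADD34, which restores translation by helping to dephosphorylate eIF2 alpha. It had 8.8, 9.91, 10.9, 11.4 and 12.6 CPM in the WT libraries of batch 2 and 9.81, 12.7 and 16.5 at the lowest, median and highest in HET. In batch 1 WT had 7.65, 9.18 and 14.1 and HET 7.88, 9.01 and 14.9. The genotypes overlapped in both batches, with HET 12 and HET 13 the highest of batch 2. HET differed from WT by a log2 fold change of 0.23 in batch 2 (standard error 0.11, edgeR adjusted p 0.607) and 0.081 in batch 1 (0.020 without the doubted libraries).

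Ddit3 (chr10:127290774-127296288, plus strand) encodes CHOP, the factor tied to death under unresolved stress. It was listed in 2 rows of overlapping gene models, and the row with 111 to 275 counts per library is described, since the other had at most 4. That other row nevertheless had the higher deposited TPM, at a mean of 20.5 against 8.5. Its WT libraries of batch 2 had 5.29, 5.37, 5.63, 6.15 and 6.2 CPM and HET had 4.9, 5.5 and 6.91. WT libraries of batch 1 had 3.38, 4.35 and 5.04 and HET 3.72, 4.61 and 6.99. The genotypes overlapped in both batches. The log2 fold change was -0.036 in batch 2 (standard error 0.10, edgeR adjusted p 0.931) and 0.21 in batch 1 (standard error 0.15; 0.16 without the doubted libraries). How reads shared by the 2 models were divided is uncertain.

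Sesn2 (chr4:132492032-132510501, minus strand) encodes a leucine sensor that restrains mTORC1. Leaving aside the second row of Ddit3, it was the most abundant ATF4 target per transcript length, at a mean of 14.5 TPM. It had 38.3, 46.4, 46.8, 53.1 and 61.3 CPM in the WT libraries of batch 2 and 39, 49.7 and 63.3 in HET. WT kidneys in batch 1 had 33.9, 37.7 and 45.2 and HET 33.1, 40.7 and 47.2. The genotypes overlapped fully, and the log2 fold change was 0.040 in batch 2 (standard error 0.15, edgeR adjusted p 0.949) and 0.081 in batch 1 (0.049 without the doubted libraries).

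The last 3 ATF4 targets did not share a direction in batch 2. Asns, asparagine synthetase, had 4.43 to 7.33 CPM in WT and 4.57 to 7.87 in HET, with a log2 fold change of -0.011. Trib3, a pseudokinase induced by CHOP and ATF4, had -0.32 with a standard error of 0.31, and Chac1, which degrades glutathione, had 0.42 with a standard error of 0.23. Trib3 and Chac1 had 7 to 52 and 9 to 48 counts per library. All 3 of these genes carry CARE in the promoter window.

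Read per mouse, the level of each group of genes was summarised as the mean log2 CPM of its members relative to the mean over the 24 libraries. For the chaperones in batch 2, the WT libraries had -0.11, -0.085, 0.0026, 0.0079 and 0.093, and the HET libraries had 0.046, 0.27 and 0.63 at the lowest, median and highest. HET 13, HET 12 and HET 9 were the high libraries, at 0.63, 0.61 and 0.51, and HET 8 and HET 10 lay within the WT range. In batch 1 the values were -0.27, -0.19 and 0.086 in WT and -0.34, -0.25 and -0.13 in HET, with WT 5 highest. For the ATF4 targets in batch 2, the WT libraries had 0.14, 0.36, 0.14, 0.18 and -0.036, and HET had 0.023, 0.18 and 0.54. HET 13 was high in both groups of genes, whereas HET 9 and HET 12, high in chaperones, had ATF4 target levels of 0.065 and 0.17, within the WT range. HET 8 was the reverse, at 0.089 for chaperones and 0.40 for ATF4 targets. These levels describe the libraries and were not tested.

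**Figure D3:**
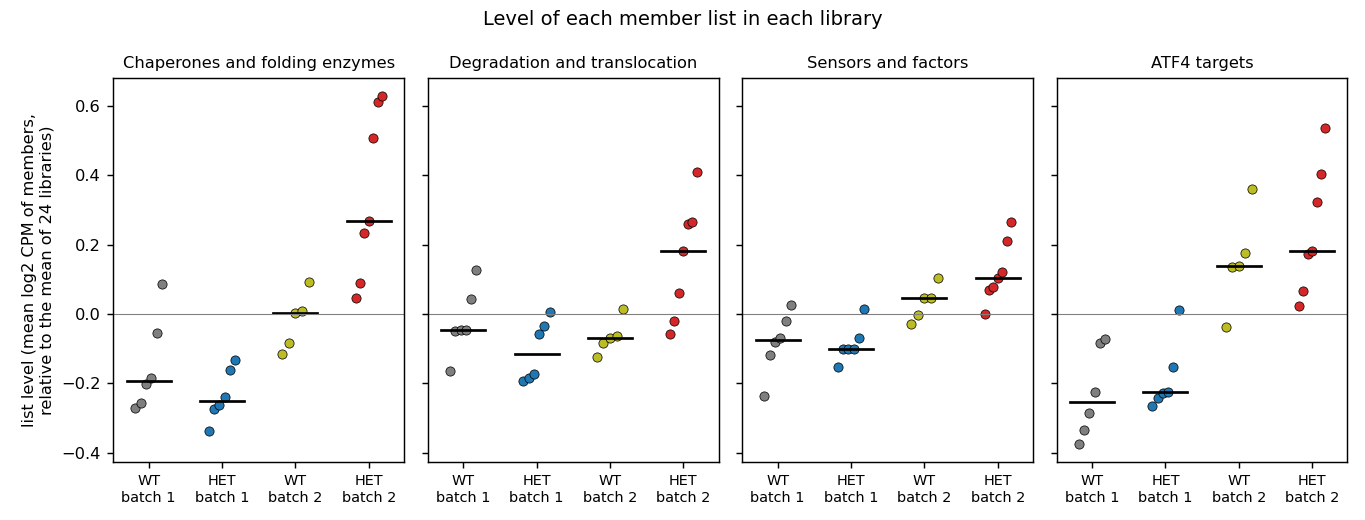
Level of each role group in each library (mean log2 CPM of its members minus the mean over 24 libraries, vertical axis), by genotype and batch, with a line at each median. In batch 2, 5 of 7 HET points lie above all WT points for the chaperones, while for the ATF4 targets the HET and WT points overlap.

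The spread among HET mice of batch 2 was wider than among the other groups for the chaperones. The SD of the chaperone level was 0.24 in HET (n = 7) and 0.082 in WT (n = 5). In batch 1 it was 0.076 in HET (n = 6) and 0.14 in WT (n = 6). Leaving out each mouse of batch 2 in turn left all 15 chaperones positive and gave a median between 0.27 without HET 12 and 0.37 without HET 10. The number of members with an unadjusted p under 0.05 then ranged from 15, without HET 9 or without WT 7, to 24, without HET 8.

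**Figure D4:**
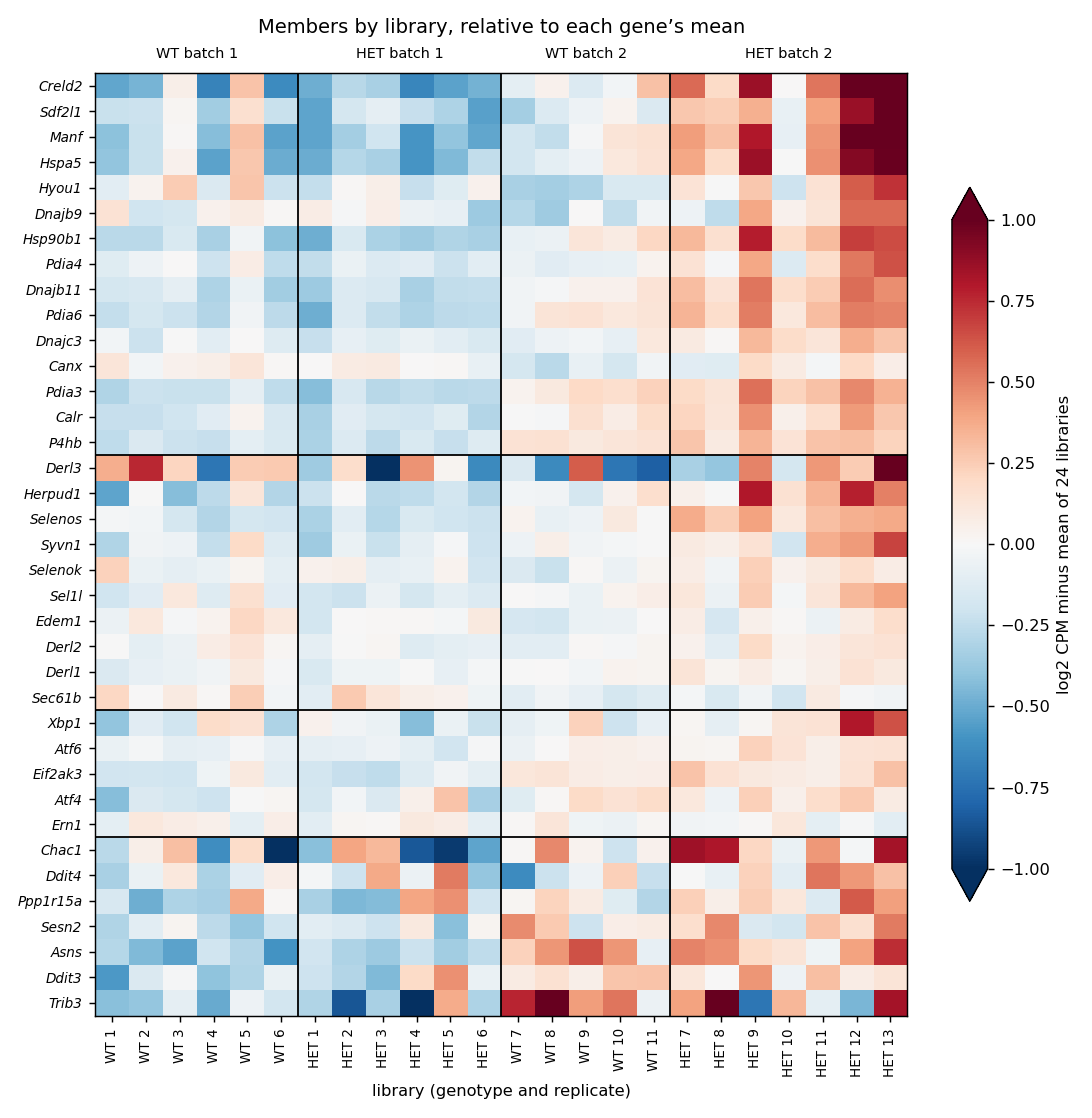
Log2 CPM of the 37 members (rows, by role) in the 24 libraries (columns, by genotype and batch), each relative to the gene's own mean and shown from -1 to 1. The upper rows of HET 9, HET 12 and HET 13 are the reddest, the batch 1 columns are mostly blue in the chaperone rows, and the ATF4 target rows do not follow the same columns.

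The genotype difference was then tested for a difference between the batches. Of the 37 members, 28 were negative in batch 1 and positive in batch 2 on counts, against 28.2% of genes tested in both. They were 15 of 15 chaperones, 9 of 10 degradation genes, 3 of 5 sensors and 1 of 7 ATF4 targets. Of the 37, 25 were so placed without the doubted libraries, 14 chaperones, 8 degradation genes, 3 sensors and 0 ATF4 targets. This placing depends on the scale. On log2(TPM + 1), members such as Dnajb11, Dnajc3, Calr, Selenos, Selenok, Sel1l, Xbp1 and Atf6 were positive in batch 1 and so were not placed there. In edgeR's interaction test, 31 members had a more positive effect in batch 2, against 55.0% of all genes, and 22 did so with an unadjusted p under 0.05, against 4.92%. The 22 were 14 chaperones, 7 degradation genes and Atf6. The median interaction was 0.39 for the chaperones and -0.027 for the ATF4 targets. None was called, with 0.00% called over all genes and a smallest adjusted p of 0.403 for Selenos, and DESeq2 called 0 with 24 members under an unadjusted p of 0.05. Without the doubted libraries 18 members had an unadjusted p under 0.05, and the chaperone median was 0.38. On log2(TPM + 1), where the median of all genes was -0.15, 18 of 37 members had a positive interaction, with 11 of 15 chaperones and a chaperone median of 0.13.

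Over all 24 mice with batch as a covariate, 35 of 37 members were positive, against 56.2% of all genes, and the medians were 0.13 for the chaperones and 0.092 for the ATF4 targets. No member was called, with 0.00% called over all 18840 genes, and 3 members had an unadjusted p under 0.05, against 2.50% of genes that were positive and under it. These were Ddit4 at 0.26, Dnajb11 at 0.13 and Selenos at 0.12, and without the doubted libraries they had 0.28, 0.15 and 0.16. DESeq2 called 0 and put 5 members under 0.05. Without the doubted libraries the chaperone median was 0.15 and that of the ATF4 targets 0.043, with 6 members under 0.05 and 0 called. On log2(TPM + 1), 26 of 37 members were positive, with a chaperone median of 0.078.

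More members passed the test between the batches than between the genotypes. With genotype as a covariate, 26 of 37 members were called higher in batch 2, against 32.5% of all genes, and Sec61b was called lower, against 31.1%. The 26 comprised 12 of 15 chaperones, 5 of 10 degradation genes, 4 of 5 sensors and 5 of 7 ATF4 targets. With the doubted libraries left out, 25 were called higher and Sec61b lower, all of them also called with all libraries. Creld2 rose by 0.78 on the log2 scale (edgeR adjusted p 0.000406), Manf by 0.65 (adjusted p 0.00116) and Hspa5 by 0.61 (adjusted p 0.000739). P4hb rose by 0.38 with the smallest adjusted p of the chaperones, 2.66e-11. Among the ATF4 targets, Trib3 rose by 0.85 (adjusted p 0.00102) and Asns by 0.69 (adjusted p 2.88e-08), while Ddit4 and Ppp1r15a had 0.050 and 0.20 and were not called.

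Canx, Hyou1 and Dnajb9 were the chaperones not called between batches, at -0.077, 0.059 and 0.077. Sec61b fell by 0.15 on the count scale (adjusted p 0.00328). On log2(TPM + 1) the median of all genes was 0.68 higher in batch 2, and all 37 members were called higher, Sec61b included, against 81.0% of all genes. On that scale the chaperone median of 1.35 stood 0.67 above that of all genes and the ATF4 target median of 0.87 stood 0.19 above it. Xbp1 rose by 0.24 (adjusted p 0.0477) but was not called without the doubted libraries (adjusted p 0.142), with DESeq2 size factors (0.0516) or without the filter on low counts (0.0593). Batch 2 was also deeper than batch 1, and what else differed between the batches is not given in the labels, so depth and batch cannot be told apart.

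The members were next compared mouse by mouse with Hspa5, over the 12 mice of each batch with both genotypes pooled. There were 12 such correlations on log2 CPM, with 6 partners in 2 batches, and p-values from 100000 two-sided permutations were adjusted over the 12. In batch 2 Hsp90b1 had a Pearson r of 0.965 and a Spearman rho of 0.916 with Hspa5 (permutation p 1e-05, the smallest that can be given, and 7e-05; adjusted 4e-05 and 0.0006), and Pdia4 had 0.972 and 0.902 (permutation p 1e-05 and 0.0001; adjusted 4e-05 and 0.0006). Sdf2l1 had 0.913 and 0.916 (permutation p 1e-05 and 0.00017; adjusted 4e-05 and 0.00068) and Herpud1 0.899 and 0.853 (permutation p 0.00031 and 0.00076; adjusted 0.000744 and 0.00228). Without HET 12 and HET 13, the mice farthest from the median of Hspa5, these r values were 0.955, 0.958, 0.856 and 0.870.

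The correlations of the ATF4 targets Asns and Trib3 with Hspa5 in batch 2 were low or negative, and neither passed the test. No other of the 7 ATF4 targets was compared with Hspa5 in this way, so the values speak for these genes only. Trib3 had 7 to 52 counts per library. Asns had an r of 0.165 and a rho of 0.0979 (permutation p 0.607 and 0.765; adjusted 0.607 and 0.765), and r was -0.269 without HET 12 and HET 13. Trib3 had an r of -0.534 and a rho of -0.455 (permutation p 0.0744 and 0.141; adjusted 0.112 and 0.212), and r was -0.763 without them.

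In batch 1 Hsp90b1 and Pdia4 again went with Hspa5, at an r of 0.835 and 0.871 and a rho of 0.734 and 0.797 (permutation p 0.00081 and 0.0002 for r, 0.00856 and 0.00285 for rho; adjusted 0.00162 and 0.0006, 0.0171 and 0.00684). Without WT 5 and WT 3 these r values were 0.559 and 0.670, and without the doubted libraries 0.864 and 0.879. Sdf2l1 had an r of 0.692 and a rho of 0.594 (permutation p 0.0133 and 0.0451; adjusted 0.0228 and 0.0773) and an r of 0.0933 without WT 5 and WT 3, so that relation rested on those mice; without the doubted libraries r was 0.859, and 0.506 when WT 5 and WT 3 were left out as well. Herpud1 had 0.395 and 0.203 (permutation p 0.202 and 0.53; adjusted 0.269 and 0.578), Asns -0.268 and -0.406 (permutation p 0.407 and 0.193; adjusted 0.444 and 0.251) and Trib3 0.361 and 0.392 (permutation p 0.247 and 0.209; adjusted 0.296 and 0.251). Their r values without WT 5 and WT 3 were 0.373, -0.236 and 0.148, and without the doubted libraries 0.417, -0.266 and 0.362. Genotype labels were not used in these correlations, so any difference between HET and WT mice is included in them.

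**Figure D5:**
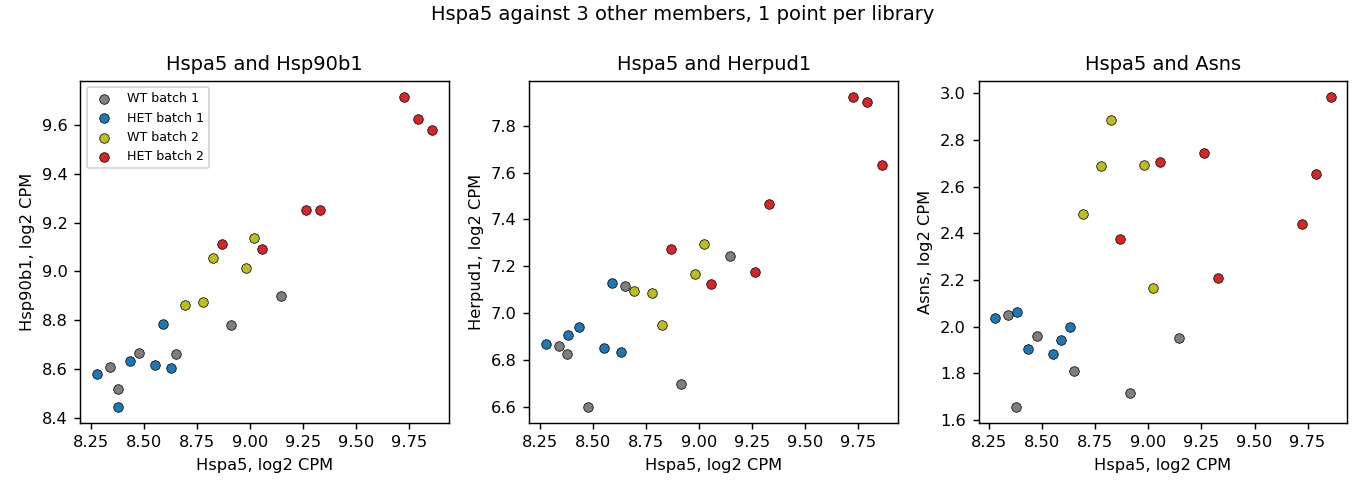
Log2 CPM of Hsp90b1, Herpud1 and Asns (vertical axes) against log2 CPM of Hspa5 (horizontal axes), 1 point per library, coloured by genotype and batch. Hsp90b1 follows Hspa5 in both batches and Herpud1 in batch 2, while Asns is higher in batch 2 than in batch 1 and does not line up with Hspa5 within it.

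The rest of the pathway was read from 5 wider lists. Of 38 other folding genes, 27 were positive in batch 2 and 6 had an unadjusted p under 0.05, all positive, with a median of 0.048. Of 33 translocon, signal peptidase and glycosylation genes, 32 were positive and 8 under 0.05, with a median of 0.087. Of 26 further degradation genes found in the table, 22 were positive and 1 under 0.05, with a median of 0.041. Of 38 tested further ATF4 targets, 26 were positive and 3 under 0.05, with a median of 0.043. Of 25 tested genes of stress signalling, 16 were positive and 3 under 0.05, with a median of 0.019. None of these genes was called in batch 2, where 0.00557% of all genes were. Over all 17955 genes tested there, 50.1% were positive, and 4.08% were positive with an unadjusted p under 0.05. The further degradation genes, with 1 of 26 under 0.05, were near that share. These signs are those on counts, and the counts of these lists on TPM are not given here.

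In each of these lists the 2 genes of smallest p in batch 2 had small differences. Erp29, a folding factor for secreted proteins, had 51.9 to 60.8 CPM in WT and 53.8 to 71.1 in HET (log2 fold change 0.19), and the isomerase Pdia5 had 10.9 to 13.2 and 12.1 to 15.6 (0.19). The translocon subunit Sec61g had 4.62 to 5.89 in WT and 6.03 to 6.81 in HET without overlap (0.23), and 0.362% of all genes were higher in every HET library. The signal peptidase subunit Spcs2 had 44.6 to 51.4 and 47.9 to 59.7 with overlap (0.16). Log2 fold changes were 0.17 for Ubxn4, which ties the membrane to the p97 ATPase, and 0.092 for Ddrgk1, of the UFM1 ligase. They were 0.14 and 0.11 for Yars and Tars, tRNA synthetases under ATF4 control, 0.15 for the kinase gene Map3k5 and 0.23 for Atp2a2, the calcium pump that fills the compartment. In batch 1 all 10 lay between -0.083 and 0.031. Without the doubted libraries they lay between -0.12 for Map3k5 and 0.0042 for Sec61g.

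Markers of other processes and cell types were read beside the chaperones in batch 2. Of all genes tested there, 50.1% were positive on counts, and 4.08% were positive with an unadjusted p under 0.05. The heat shock genes, which respond to misfolded protein outside the compartment, were positive in 9 of 9, with 3 under an unadjusted p of 0.05 and a median of 0.41. Most encode cytosolic chaperones, while Hspe1 and Hspd1 of this list encode mitochondrial ones. Their summed level was 2655 to 3569 CPM in WT and 2699.8 to 4684 in HET, with HET 13 highest and HET 8 lowest among HET. The thick limb and distal tubule markers were positive in 7 of 8, with 3 under 0.05 and a median of 0.16, and summed to 6335 to 7263 CPM in WT and 6924 to 8133 in HET. The proximal tubule markers were positive in 4 of 8, with a median of -0.030 and sums of 10084 to 11739 in WT and 10484 to 11983 in HET. The macrophage markers were positive in 0 of 8, with a median of -0.081 and sums of 384 to 604 CPM in WT and 370.4 to 581 in HET. The fibroblast markers were positive in 0 of 7, with a median of -0.080 and sums of 586 to 915 and 593 to 805. The adipocyte markers were positive in 0 of 6, with a median of -0.76 and sums of 50.4 to 244 and 46.6 to 240.4. The tubular injury markers were positive in 2 of 7, with a median of -0.060 and sums of 1057 to 2083 and 1055 to 1778. None of these markers was called, and each had counts, and the sums of WT and HET overlapped in each list. Their part in the chaperone result was not tested.

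Secretory cells other than kidney epithelium could also carry these transcripts. The 10 plasma cell markers summed to 13.6 to 143 CPM in WT and 10.8 to 190.3 in HET of batch 2, with HET 13 highest. HET 9 and HET 12, the other high chaperone mice, had 10.8 and 14.5. Of 6 pancreas markers, Cela2a, Cpa1, Prss2 and Pnlip had no counts in any library, and 1 of the 6 passed the filter on low counts. The summed level was 24.6 to 31.7 CPM in WT and 25.2 to 33.4 in HET of batch 2. In batch 1, where 5 of the 6 had no counts, it was 27.5 to 31.3 CPM in WT and 31.3 to 36.1 in HET. The sum thus speaks for 1 gene and not for the list. The immediate early genes, which switch on within minutes of a stimulus and are mostly transcription factors, were positive in 12 of 12 in batch 2, with a median of 0.51. Their sums there were 95.7 to 152 CPM in WT and 115 to 324 in HET. In batch 1, where the chaperones were negative on counts, they were also positive in 12 of 12, with a median of 0.95. None was called in either batch. The part of plasma cell and immediate early RNA in the results was not tested.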

How the data were processed

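Bulk RNA-seq of 24 mouse kidneys was read from 1 table of 55487 genes. The expected counts, TPM and FPKM of each library are the authors' values as deposited; FPKM was not used here. Reads had been processed with fastp, STAR and featureCounts on GRCm38 (mm10), per the submitters' processing notes; versions and strand setting are not given in the sources. In each library 11.8% to 15.4% of genes with counts had expected counts that were not whole (tolerance 1e-06); these deposited counts were rounded. Replicate numbers are names in accession order. All 38 member identifiers were found in GENCODE M21, which gave the coordinates, and every per-sample column had a sample.

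Genes were filtered by filterByExpr (minimum count 10) and scaled by TMM in edgeR 4.0.16 (R 4.3.3), with robust quasi-likelihood tests and Benjamini-Hochberg adjustment over all genes tested, at a threshold of 0.05. HET was compared with WT in each batch, in all mice with batch as covariate, and as an interaction; batch 2 was compared with batch 1. CPM used the TMM factors, and log2 CPM a prior count of 2. Limma 3.58.1 was used on log2 of the deposited TPM plus 1 (or 0.1), DESeq2 1.42.0 on the rounded counts, and permutations in scipy 1.17.1. Motifs were searched for exact letters on both strands of RefSeq promoters.

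The members and lists were chosen with earlier results of these data known. Members given in full were, in each role group, the 2 of smallest p in batch 2, the 1 of smallest p in batch 1 and the 1 of highest mean TPM, with Hspa5. The rule also asked for every member called in any comparison; since 27 were called between batches, after their values were seen these were given by counts and examples. In the wider lists the 2 genes of smallest p in batch 2 were named. Creld2, Sdf2l1, Hyou1 and the batch examples were named after their values were seen. Leaving out HET 6, WT 1 and WT 2 was chosen after seeing the data. Of the kidney markers, 1 is not reported here.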

Additional observations from a re-analysis of the deposited data

Results flagged for a closer look

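In batch 1, Selenok stood apart in the library labelled WT 1, at 50.9 CPM, above the other WT libraries at 40.4 to 44.2 CPM. This library is 1 of the 3 whose Nbl1 level went against the label. Also in batch 1, Herpud1 stood apart in HET 2, at 139.9 CPM, above the other HET libraries at 114 to 123 CPM. In both cases the gap to the nearest library was larger than Dixon's critical value for 6 samples allows. Chance flags about 1 in 20 groups, and 80 groups of values were checked.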

How the results depend on the processing

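The number of members called for genotype was 0 under the alternatives tried in batch 1, in all mice and for the interaction. In batch 2 it was 0 on counts with TMM or DESeq2 size factors, without the filter and on TPM, 3 with DESeq2, 1 in the edgeR fit on all 24 mice, and 0 to 1 when each mouse was left out. Some signs turned. On log2(TPM + 1) and log2(TPM + 0.1), the batch 1 differences turned positive for Dnajb11 (0.014 and 0.015), Dnajc3 (0.016 and 0.016), Calr (0.016 and 0.016), Selenos (0.0030 and 0.0030), Selenok (0.069 and 0.071), Sel1l (0.021 and 0.022), Xbp1 (0.079 and 0.081), Atf6 (0.032 and 0.036), Erp29 (0.027 and 0.027), Sec61g (0.046 and 0.050), Spcs2 (0.034 and 0.036), Ubxn4 (0.018 and 0.019), Ddrgk1 (0.041 and 0.042), Map3k5 (0.016 and 0.018) and Atp2a2 (0.021 and 0.021). On the same scales the batch 2 differences turned negative for Sel1l (-0.026 and -0.027), Atf6 (-0.067 and -0.071), Atf4 (-0.12 and -0.12), Sesn2 (-0.11 and -0.11), Ddrgk1 (-0.073 and -0.073), Yars (-0.072 and -0.076) and Map3k5 (-0.017 and -0.018). The interaction turned negative on log2(TPM + 1) for Calr (-0.0015), Selenok (-0.012), Sel1l (-0.047), Xbp1 (-0.018), Atf6 (-0.10) and Ddit4 (-0.0016), and the batch 1 correlation of Hspa5 with Asns turned to 0.263. Without HET 6, WT 1 and WT 2, batch 1 turned to Selenok (0.050), Pdia5 (-0.027), Sec61g (0.0042) and Tars (-0.00090), and Ddit4 between batches turned to -0.014. Of the members not given in full, Dnajb9 (0.0063) and Chac1 (0.0072) turned in batch 1 as well. Without the filter Yars in batch 1 turned to 0.00070. Leaving out each mouse in turn gave, in batch 1, Selenok -0.049 to 0.023, Herpud1 -0.037 to 0.094, Xbp1 -0.073 to 0.046, Ppp1r15a -0.040 to 0.20, Erp29 -0.041 to 0.024, Pdia5 -0.025 to 0.061, Sec61g -0.070 to 0.044, Spcs2 -0.062 to 0.0059, Yars -0.029 to 0.025, and in batch 2, Atf4 -0.024 to 0.049, Sesn2 -0.039 to 0.13, with signs that turned. Apart from the TPM scale and the libraries left out, whose construction moves the values, the cause was not tested.

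No paired analysis was possible because the labels carry no replicate numbers, and the numbers used here only name the mice. With 5 to 7 mice a group, single differences near 0.1 on the log2 scale lay within the standard errors of many members. Trib3, Chac1 and Derl3 had fewer than 70 counts in every library, and intervals from such counts are wide. The 3 libraries of batch 1 whose Nbl1 level goes against the label limit every comparison that includes that batch. Splicing of Xbp1, cleavage of ATF6 and translation of ATF4 are steps that these gene-level values do not measure.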

Other observations

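Genes outside the 37 members also carry the ERSE letters in the promoter window, and 11 of them were tested. In batch 2, 6 of the 11 were positive, with a median log2 fold change of 0.074 and 0 called by edgeR, and 2 were positive with an unadjusted p under 0.05, Xlr3b and Acnat2, and 2 were negative and under it, Pan2 (-0.17) and Spats2l (-0.20). In batch 1, 3 of the 11 were positive. Alg12, a mannosyltransferase of the glycan precursor whose promoter window holds the ERSE letters, had 0.10 in batch 2 with a standard error of 0.078. These genes were singled out after their values were seen. Among the 13 chaperones with a promoter in the table, the 8 with ERSE or ERSE-II had a median log2 fold change of 0.27 in batch 2 and the 5 without had 0.31, so the letters did not sort the chaperones by size of difference. The 9 members with ERSE had a median of 0.25, and all 9 were positive. The 4 with CARE had a median of 0.19, and 2 were positive. They were Chac1 at 0.42 and Herpud1, which also holds ERSE-II, at 0.39, while Asns had -0.011 and Trib3 -0.32.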
